A study of Mus musculus with 32 samples.

Results

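The mRNAs of 9 proteins of the synaptic vesicle and its fusion machinery were followed in S100a10 cells and in whole cortex of mice under social isolation and fluoxetine. The 9 genes, Snap25, Stx1a, Vamp1, Vamp2, Syt1, Sv2a, Sv2b, Rab3a and Syp, were chosen by name out of 24062 genes counted, and each was found in all 32 libraries. All mice were male adults that carried the BAC transgene Tg(S100a10-EGFP/Rpl10a)ES691Htz, in which regulatory elements of S100a10 drive the ribosomal protein L10a fused to EGFP. The mice are 1 transgenic line, and every cell in which those elements are active is tagged. Translating ribosome affinity purification (TRAP) pulls down the tagged polysomes with anti-EGFP antibodies, and the input is total RNA of the same cortex. The 4 groups were group-housed mice on vehicle (Gh), single-housed mice on vehicle (Sh), single-housed mice given fluoxetine at 0.167 g/L in the drinking water for 21 days (Sh + Flx), and single-housed mice given the same fluoxetine that were classed as anxious in an open field (Sh + Flx anxious). Mice were weaned at postnatal day 21, and single housing lasted at least 7 weeks. Each library pooled the cortices of 3 mice, without hippocampus and striatum, and each group gave 4 TRAP and 4 input libraries.

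Fusion of a synaptic vesicle is driven by the SNARE complex, in which a vesicle protein (synaptobrevin, encoded by Vamp1 and Vamp2) zips up with syntaxin (Stx1a) and SNAP-25 (Snap25) on the plasma membrane. Synaptotagmin 1 (Syt1) senses the calcium that triggers fusion, the SV2 proteins (Sv2a, Sv2b) are vesicle glycoproteins that act in calcium-dependent release and serve as receptors for botulinum neurotoxins, Rab3a (Rab3a) is the vesicle GTPase that recruits tethering factors, and synaptophysin (Syp) is an abundant vesicle membrane protein that binds synaptobrevin. In the cortex these mRNAs are made by neurons, where Vamp2 is the main synaptobrevin, while Vamp1 prevails in brainstem and spinal cord.

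The depth was high for all 9 genes. TRAP libraries held 9776244 to 64788703 counts in genes and input libraries 19265435 to 34515281, and the lowest count of a member in any library was 462, for Stx1a. S100a10, the gene that marks the tagged cells, stood at 41.5 to 73.0 CPM (counts scaled to a common total, here by library size alone) in 14 TRAP libraries and at 5.45 to 10.3 in input. The other two TRAP libraries, Sh TRAP 2 and 3, held S100a10 at 20.4 and 11.2 CPM, the nuclear RNA Malat1 at 25396 and 40707 CPM (3106 to 8117 elsewhere in TRAP), and 50.3% and 58.6% of read pairs outside genes (25.2% to 39.8% elsewhere in TRAP). The main tests of the members that use Sh TRAP were therefore also run without them, and those values are given for many but not all members. The scaling to pan-neuronal markers was run with all libraries only. The pair Gh TRAP 2 and 3 was nearly as alike as repeated sampling of 1 library would be (chi-square of 1.13 per gene on average, where every other pair of replicates gave 2.17 or more). It was counted as 1 sample, so that Gh TRAP has n = 3. The next closest pair was Sh TRAP 1 and 4 (2.17), which were kept as 2 samples. Without Sh TRAP 2 and 3 this pair alone stands for Sh TRAP, so the spread within Sh may be understated in those fits. The study's methods describe the 4 libraries of a condition as biological replicates. Within the groups, replicates 2 and 3 were each other's closest library in 8 of 8 and replicates 1 and 4 in 7 of 8, and the counts of members are therefore also given with each such pair summed. All CPM below are scaled by TMM. In bulk RNA of this kind, fewer cells of a type and less RNA per cell cannot be told apart.

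Per unit of length, Snap25 was the most abundant of the 9 mRNAs in every group of both fractions and Vamp2 the next. On a scale of counts per kilobase of merged exons, summed to a fixed total in each library, Snap25 (chromosome 2, 136713439 to 136782428, GRCm38) stood at 33432 ± 1499 in Gh input and 25279 ± 2659 in Gh TRAP (SD, n = 4 and 3). Vamp2 (chromosome 11, 69088528 to 69092381) stood at 3427 ± 222 and 2414 ± 105 on the same scale, with no library of one gene near the range of the other. Syt1 (chromosome 10, 108497650 to 109010980) and Syp (chromosome X, 7638580 to 7653256) followed in Gh input at 997 ± 70.4 and 980 ± 102, with overlapping ranges. In Gh TRAP their order depended on the length used: Syp was above Syt1 per kilobase of merged exons (691 ± 128 against 635 ± 29.2) and below it per kilobase of the longest transcript (652 ± 121 against 674 ± 31.4).

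The middle of the order was held by Rab3a (chromosome 8, 70754703 to 70758608) at 420.0 ± 20.5 and Sv2b (chromosome 7, 75114894 to 75309262) at 376 ± 30.0 in Gh input, again with overlapping ranges. In Sh + Flx anxious input Sv2b stood above Rab3a, at 559 ± 27.0 against 383 ± 13.1, with ranges of 532 to 587 and 366 to 397 that did not overlap. The same held in Sh + Flx input, at 481 ± 35.5 against 377 ± 10.3 (449 to 516 and 370 to 392). The mean of Sv2b was also the higher in Sh input (420.2 against 405.0) and in Gh TRAP (303 against 285), with overlapping ranges. Vamp1 (chromosome 6, 125215581 to 125222306) stood at 184 ± 5.44 in Gh input, below Sv2b and Rab3a and above the 2 lowest members. These were Sv2a (chromosome 3, 96181227 to 96195183) at 91.7 ± 2.86 and Stx1a (chromosome 5, 135023482 to 135051100) at 82.7 ± 5.73, whose ranges overlapped. In Gh TRAP Sv2a was lowest, at 52.9 ± 5.33, while Stx1a (85.4 ± 16.9) and Vamp1 (85.9 ± 8.78) could not be ordered.

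**Figure D1:**
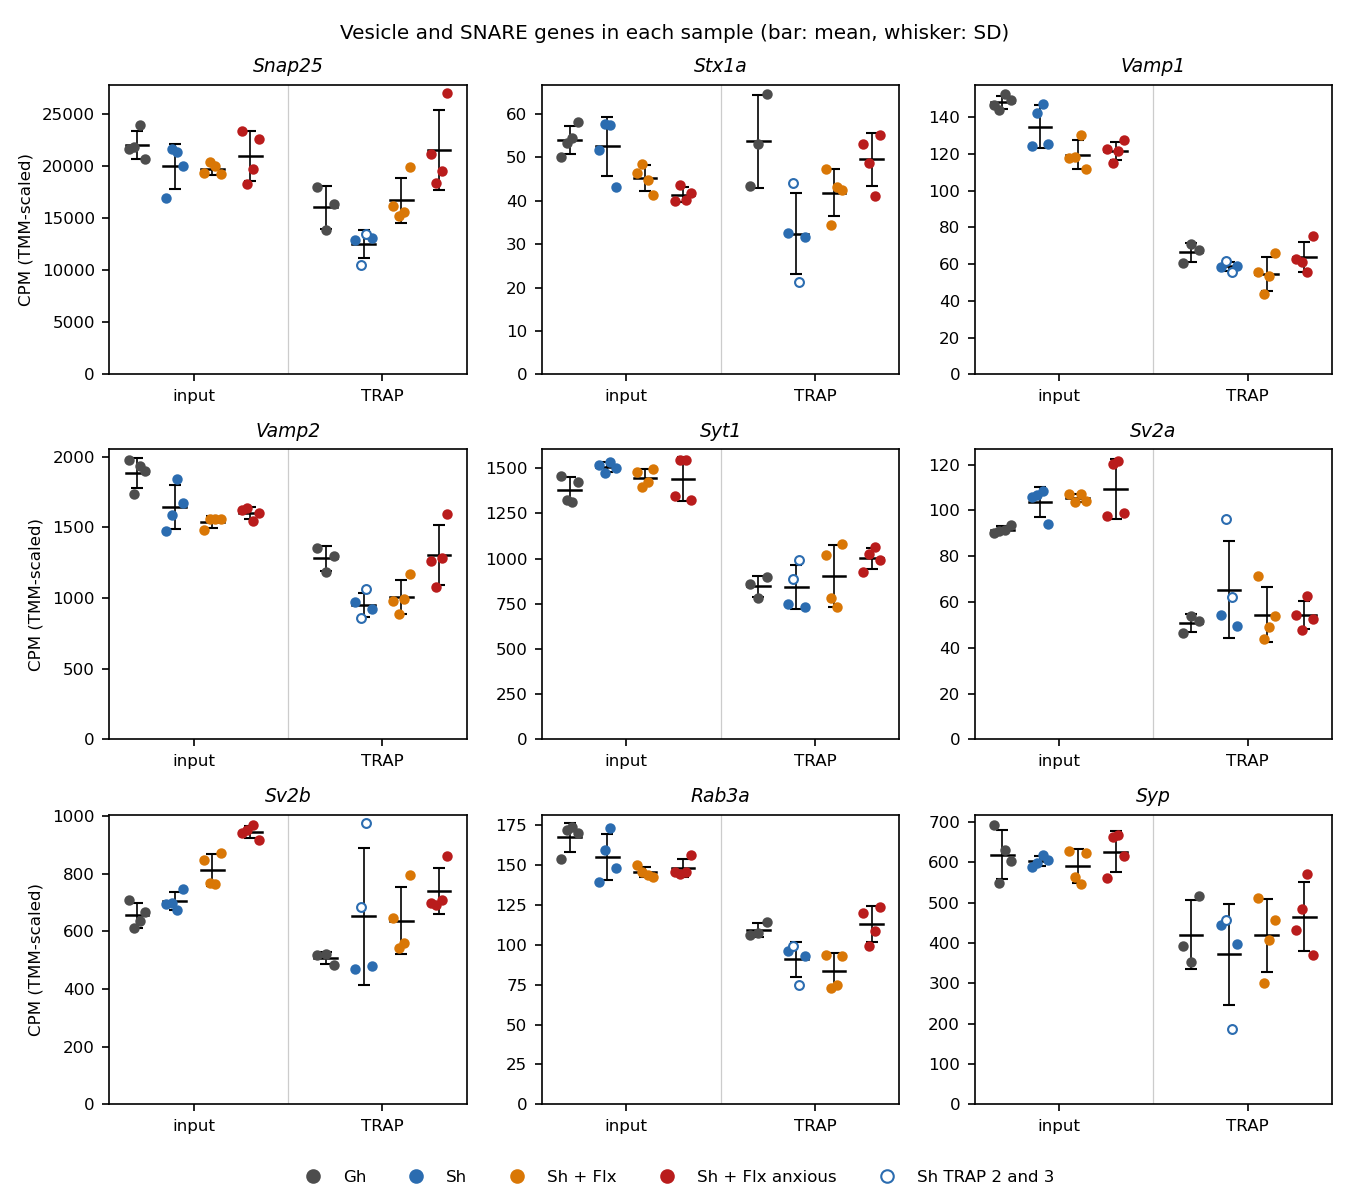
CPM scaled by TMM (linear axes from 0) of each of the 9 genes in every sample, by fraction and group. Points are samples (open for Sh TRAP 2 and 3), bars are group means and whiskers 1 SD. Snap25 lies between 10493 and 27020 CPM throughout, and for Vamp1 the TRAP libraries (43.7 to 75.5 CPM) lie below all input libraries (112 to 152 CPM).

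The design sets TRAP mRNA of S100a10 cells against whole cortex. In group-housed mice, 7 of the 9 mRNAs were lower in TRAP mRNA than in input and none was higher, in a comparison in which 42.2% of 17015 genes were called, 3450 higher and 3726 lower (edgeR's quasi-likelihood test, adjusted p under 0.05). With library size alone as the scale the split over all genes was 4917 higher and 2257 lower. The largest difference was that of Vamp1, at 0.449 of its input level. Stx1a differed least, and Sv2b missed the threshold. The members are set beside marker lists of other cell types below.

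Vamp1 stood at 146, 144, 152 and 149 CPM in the 4 Gh input libraries and at 60.6, 70.9 and 67.5 in the 3 Gh TRAP samples. All TRAP samples were below all input libraries, and the log2 difference was -1.16 (standard error 0.11, adjusted p = 7.84e-10). The difference was -1.20 in Sh, -1.13 in Sh + Flx and -0.93 in Sh + Flx anxious (largest adjusted p = 6.28e-09), with no overlap in any group, and -1.14 in Sh with Sh TRAP 2 and 3 left out. Sv2a came next in Gh, at 90.1, 91.004, 91.5 and 93.6 CPM in input against 46.4, 54.1 and 51.8 in TRAP, a log2 difference of -0.85 (standard error 0.16, adjusted p = 6.99e-05). The calcium sensor Syt1 had a log2 difference of -0.70 in Gh (standard error 0.11, adjusted p = 7.12e-06) and was lower without overlap in all 4 groups, by -0.52 to -0.84, the latter in Sh, where it was -0.97 without those 2 libraries. Rab3a was likewise lower without overlap in all 4 groups, by -0.61 in Gh, -0.77 in Sh, -0.80 in Sh + Flx and -0.39 in Sh + Flx anxious (log2), with -0.66 in Sh without them.

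In Gh, Snap25, Vamp2 (-0.56) and Stx1a lay closer to their input level than Vamp1, Sv2a, Syt1 and Rab3a did. So did Sv2b (-0.37) and Syp (-0.56, log2). Snap25 stood at 21657, 21841, 23935 and 20681 CPM in Gh input and at 17967, 13854 and 16324 in Gh TRAP. The TRAP samples lay below the input libraries, with a log2 difference of -0.46 (standard error 0.12, adjusted p = 0.00335). In Sh + Flx anxious the ranges of Snap25 overlapped, and the difference was 0.04 (95% interval -0.20 to 0.27). Vamp2 was lower in all 4 groups, from -0.30 in Sh + Flx anxious to -0.79 in Sh (-0.75 without Sh TRAP 2 and 3), and Syp from -0.43 to -0.70, with adjusted p of 0.0125 and 0.045 in Sh + Flx anxious. Stx1a stood at 50.1, 53.2, 54.5 and 58.0 CPM in Gh input and at 43.3, 53.0 and 64.5 in Gh TRAP, ranges that overlap, and its difference was -0.00 (95% interval -0.33 to 0.32, adjusted p = 0.985). Of the 4 groups, Stx1a passed the test in Sh, at -0.70 (adjusted p = 0.000327), and it did so without Sh TRAP 2 and 3 (-0.66, adjusted p = 0.000182).

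Over the other groups, 8 of 9 members were lower in Sh, where 40.1% of all genes were called, 7 in Sh + Flx (51.9%) and 7 in Sh + Flx anxious (50.8%), and none was higher. With library size alone as the scale the counts in Sh + Flx anxious were 3 lower and 1 higher, Stx1a (0.44, adjusted p = 0.0234). With Sh TRAP 2 and 3 left out, 9 of 9 were lower in Sh, where 51.5% of genes were called. Sv2b was the member that this changed, from -0.11 (adjusted p = 0.591) to -0.52 (adjusted p = 0.000118). The weaker calls rested on single libraries. Sv2b (-0.35 in Sh + Flx and in Sh + Flx anxious, both adjusted p = 0.0431) lost its call without any 1 of 5 libraries in Sh + Flx (TRAP 1, 2 and 3, input 1 and 4; adjusted p 0.0638 to 0.141). In Sh + Flx anxious it lost it without any 1 of 7 (TRAP 1, 2 and 3 and all 4 input; 0.058 to 0.1). Syp lost its call in Sh + Flx anxious without any 1 of 6 (TRAP 1, 2 and 4, input 2, 3 and 4; 0.0612 to 0.15), in Gh without TRAP 1, the sum of TRAP 2 and 3, or input 1 (0.0594 to 0.114), and in Sh + Flx without TRAP 2 (0.103). Vamp2 lost its call in Sh + Flx anxious without TRAP 2 (0.076), and Snap25 gained one in Sh + Flx without TRAP 4 (-0.34, adjusted p = 0.0176). With replicates 1 and 4 and replicates 2 and 3 of each group summed, which leaves 2 samples a group, 6 members were lower in Gh, 8 in Sh, 5 in Sh + Flx and 3 in Sh + Flx anxious. The calls lost there were those of Syp in Gh (0.0785), of Sv2b and Syp in Sh + Flx (0.295 and 0.113), and of Rab3a (0.0691), Sv2b (0.278), Syp (0.174) and Vamp2 (0.174) in Sh + Flx anxious. Shares of all genes called are not given here for the summed replicates, nor for library size alone in Sh + Flx anxious. The smaller counts are therefore not read as results about the members.

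**Figure D2:**
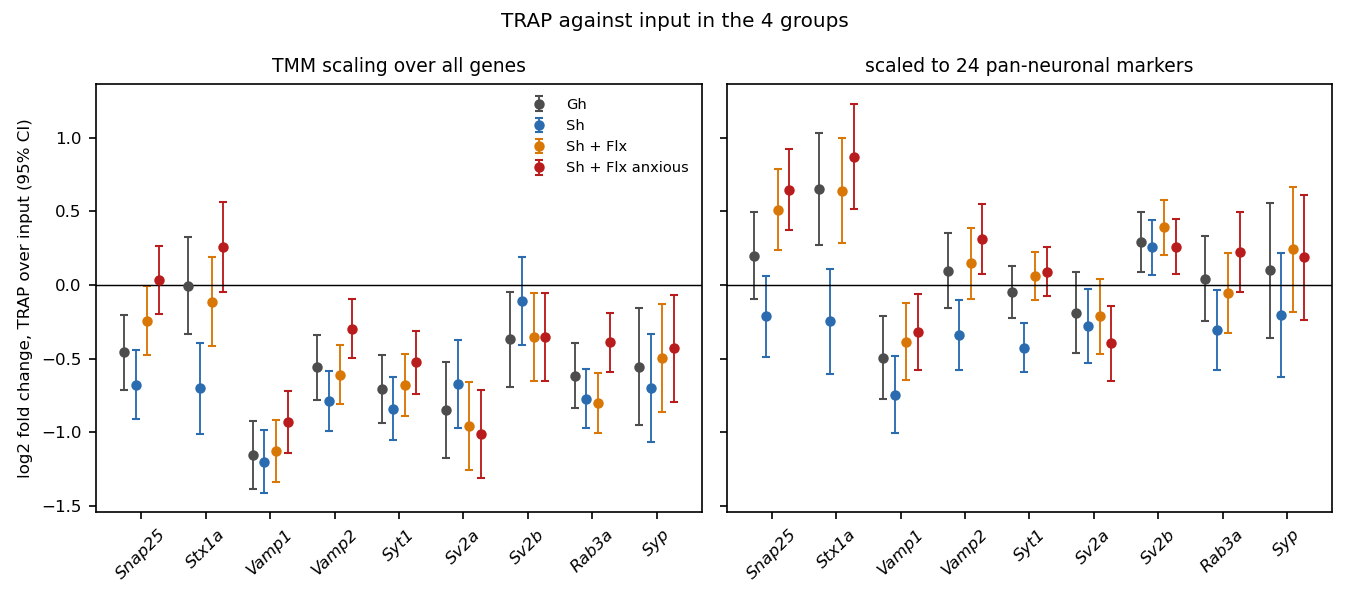
Log2 difference of TRAP mRNA from input for the 9 genes in each of the 4 groups, with TMM scaling (left) and scaled to 24 pan-neuronal markers (right), with 95% intervals from edgeR and a line at 0. On the left Vamp1 lies lowest or next to lowest in each group (-0.93 to -1.20), while Stx1a and Snap25 lie at 0.26 and 0.04 in Sh + Flx anxious.

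Other neuronal mRNAs were lower in TRAP mRNA too. Of 24 pan-neuronal markers outside the vesicle cycle, 20 were lower and none higher in Gh, with a median log2 difference of -0.67 against -0.56 for the 9 members and -0.06 for all genes tested. The summed level of these markers was 14420 to 14894 CPM in Gh input and 8929 to 9491 in Gh TRAP. All 12 meningeal fibroblast markers were higher in Gh TRAP, with a median of 5.26, and their summed level was 7555 to 8996 CPM there against 228 to 265 in Gh input. Of 14 endothelial and mural cell markers 9 were higher (summed 156 to 180.0 against 38.0 to 49.3 CPM), of 12 oligodendrocyte markers 1 was higher and 10 lower (984 to 1051 against 2273 to 2565 CPM), and of 16 inhibitory interneuron markers 13 were lower (1017 to 1118 against 1942 to 2175 CPM). Of 12 astrocyte markers 2 were higher and 4 lower (2721 to 2873 against 3103 to 4279 CPM), of 12 microglia markers 3 were higher (94.6 to 111 against 65.5 to 84.0 CPM), and of 10 nuclear noncoding RNAs 6 were lower, with a summed level of 7707 to 10739 CPM in Gh TRAP against 53958 to 64297 in Gh input. Of 14 markers of layer 5 projection neurons, the cell type named in the labels, 4 were higher and 7 lower. Their summed level was lower in TRAP (1227 to 1352 against 1638 to 1821 CPM), as was that of the pan-neuronal markers. On this scale the sum cannot settle that name, and the cells are called here by the tag alone. No marker of these lists was at 0 in a whole group. The part of these cell types in the members' differences was not tested.

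Relative to the pan-neuronal markers, most members were not lower. When the libraries were scaled to the summed counts of that list, the median of all genes in Gh moved by more than 0.1, from -0.06 to 0.60 on the log2 scale, and 2 members were higher and 1 lower in Gh (52.5% of all genes called). The counts were 1 higher and 3 lower in Sh (45.9%), 3 and 1 in Sh + Flx (60.4%), and 4 and 2 in Sh + Flx anxious (54.3%). Stx1a then stood at 0.65 in Gh (adjusted p = 0.00427), 0.64 in Sh + Flx and 0.87 in Sh + Flx anxious (adjusted p = 0.00216 and 0.000112), but at -0.25 in Sh (adjusted p = 0.257). Sv2b was higher in all 4 groups on this scale, by 0.26 to 0.39. Snap25 was higher by 0.51 in Sh + Flx and by 0.65 in Sh + Flx anxious (adjusted p = 0.00164 and 0.000182). The direction of these members in TRAP mRNA thus turned with the scaling, whereas Vamp1 stayed lower in all 4 groups under both.

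Among 26 relatives and partners of the 9 genes, 21 were lower in Gh TRAP mRNA and 2 were higher, or 88.5% called beside 42.2% of all genes. The 2 were Snap23, the SNAP-25 relative that serves fusion outside the synapse, and Vamp3, the cellubrevin of endosomal recycling. Snap23 stood at 134 ± 12.6 CPM in Gh TRAP against 52.3 ± 0.555 in Gh input, a log2 difference of 1.36 (adjusted p = 2.91e-08), and Vamp3 at 168 ± 10.9 against 64.0 ± 3.81, a difference of 1.39 (adjusted p = 1.57e-07). Both are broadly expressed genes. Lower partners included the complexins Cplx1 (-0.81) and Cplx2 (-1.03), which clamp and promote SNARE zippering, the vesicle phosphoprotein Syn2 (-0.99), the Rab3 relatives Rab3b (-1.18) and Rab3c (-1.36), and the vesicular glutamate transporter Slc17a7 (-0.57). Over 6 lists of the vesicle cycle with 160 genes, of which 155 were tested, 19 were higher and 79 lower in Gh (63.2% called).

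In whole cortex, the comparisons of housing and fluoxetine moved several members by less than 1.5-fold. Single housing alone changed none of the 9 at the threshold in input (0.0829% of 15690 genes called by edgeR), although 5 had an unadjusted p under 0.05, as did 1765 of all genes (11.2%), and DESeq2 called 1, Vamp2, beside 2.13% of 7416 genes. Fluoxetine-treated single-housed mice differed from Gh in 4 members when not anxious (5.31% of all genes called) and in 5 when anxious (11.5%). Sv2b rose in both, and Vamp1 and Vamp2 fell in both. These comparisons share the Gh libraries, or the Sh libraries, and are not independent of each other. The fluoxetine groups differ from Gh in both housing and drug, which a comparison with Gh cannot tell apart.

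Sv2b stood at 709, 611, 634 and 668 CPM in the 4 Gh input libraries, at 695, 697, 674 and 747 in Sh, at 848, 767, 763 and 873 in Sh + Flx, and at 941, 951, 969 and 916 in Sh + Flx anxious. The Sh + Flx libraries lay above all Gh and Sh libraries, and the Sh + Flx anxious libraries above all others. Compared with Gh, the log2 difference was 0.31 in Sh + Flx (standard error 0.05, adjusted p = 0.000574) and 0.53 in Sh + Flx anxious (standard error 0.05, adjusted p = 8.38e-08), which is 1.44-fold. Compared with Sh, it was 0.20 (adjusted p = 0.0415, with 2.62% of all genes called) and 0.42 (adjusted p = 4.76e-06, with 6.86% called). The first of these lost its call without any 1 of Sh input 1, 2 or 3 or Sh + Flx input 1 or 4 (0.0929 to 0.177), and with replicates summed in pairs (0.21, adjusted p = 0.446). Between Sh + Flx anxious and Sh + Flx, in which 0.127% of all genes were called, Sv2b did not pass the test (0.22, 95% interval 0.11 to 0.33, adjusted p = 0.115), and with DESeq2 it did (adjusted p = 0.0332). Sv2b was the 1 member with an unadjusted p under 0.05 there, and edgeR called none. The exons of Sv2b share 43 bases with the antisense gene 1500012K07Rik, whose mean stayed under 0.5 CPM in every group.

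The other SV2 member moved less. Sv2a stood at 90.1 to 93.6 CPM in Gh input and at 97.4, 120.1, 122 and 99.0 in Sh + Flx anxious input, all above Gh. Its log2 difference was 0.26 (adjusted p = 0.0131), and the call was lost without Sh + Flx anxious input 2 or 3 (0.0682 and 0.0752). Compared with Sh, whose libraries stood at 94.0 to 108 CPM, the difference was 0.07 (95% interval -0.07 to 0.21).

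The synaptobrevins were lower in both fluoxetine groups than in Gh, from which those groups also differ in housing. In Sh the log2 differences from Gh were -0.19 for Vamp2 and -0.13 for Vamp1, neither called by edgeR. Vamp2 stood at 1981, 1735, 1938 and 1898 CPM in Gh input, at 1479, 1560, 1560 and 1557 in Sh + Flx, and at 1625, 1640, 1548 and 1600 in Sh + Flx anxious, without overlap of either with Gh. The log2 differences were -0.30 (standard error 0.05, adjusted p = 0.00064) and -0.24 (standard error 0.05, adjusted p = 0.00299). Vamp1 fell from 144 to 152 CPM in Gh to 118, 118, 130.5 and 112 in Sh + Flx and 122, 115, 121 and 127 in Sh + Flx anxious, with log2 differences of -0.31 (adjusted p = 0.00209) and -0.28 (adjusted p = 0.00224). The Sh libraries, at 1474, 1591, 1846 and 1673 CPM for Vamp2 and 124 to 147 for Vamp1, overlapped the Gh range and that of 1 or both fluoxetine groups. Compared with Sh neither gene passed the test in either fluoxetine group (adjusted p 0.146 to 0.751).

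Stx1a was lower in anxious mice than in both vehicle groups. It stood at 50.1, 53.2, 54.5 and 58.0 CPM in Gh input, at 51.7, 57.7, 57.3 and 43.1 in Sh, at 46.4, 48.4, 44.7 and 41.4 in Sh + Flx, and at 40.0, 43.7, 40.0 and 41.7 in Sh + Flx anxious. The anxious libraries lay below all Gh libraries and overlapped Sh through Sh input 4 alone. The log2 difference from Gh was -0.38 (standard error 0.08, adjusted p = 0.00207) and from Sh -0.35 (standard error 0.08, adjusted p = 0.00692), where the call was lost with replicates summed in pairs (-0.36, adjusted p = 0.0793). In Sh + Flx it was -0.25 from Gh (adjusted p = 0.0709) and -0.22 from Sh (adjusted p = 0.196), and without Sh input 4 the latter passed (-0.30, adjusted p = 0.043). Rab3a fell by 0.20 in Sh + Flx compared with Gh on the log2 scale (adjusted p = 0.0449), a call lost without any 1 of 7 of the 8 libraries compared, all but Gh input 1 (0.0805 to 0.123). In Sh + Flx anxious the difference of Rab3a from Gh was -0.18 (adjusted p = 0.0556), and it passed without Gh input 1 or Sh + Flx anxious input 4 (0.0247 and 0.0397). Snap25, Syt1 and Syp passed the test in none of the input comparisons, with log2 differences from Gh of -0.16 to 0.13.

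As counts of members, 1 was higher and 3 were lower in Sh + Flx than in Gh, where 5.31% of all genes were called, and 2 higher and 3 lower in Sh + Flx anxious than in Gh, where 11.5% were. The medians of the 9 log2 differences were -0.16 and -0.07, against -0.01 for all genes in both. Markers of oligodendrocytes moved with these comparisons. Of 12 such markers 6 were lower in Sh + Flx and 10 in Sh + Flx anxious than in Gh, none was higher, and their summed level was 2273 to 2565 CPM in Gh, 2125 to 2480 in Sh, 1781 to 1843 in Sh + Flx and 1445 to 1754 in Sh + Flx anxious. The summed pan-neuronal level was 14420 to 14894 CPM in Gh, 14064 to 14433 in Sh + Flx and 14075 to 14281 in Sh + Flx anxious. The summed level of 16 inhibitory interneuron markers was 1942 to 2175 CPM in Gh, 2314 to 2431 in Sh + Flx (3 higher, 1 lower) and 2346 to 2396 in Sh + Flx anxious (4 higher, 2 lower). That of 12 meningeal fibroblast markers was 228 to 265, 169 to 223 (2 lower) and 135 to 179 CPM (1 higher, 4 lower). The part of these cell types in the members' changes was not tested. Scaled to the pan-neuronal markers, Sv2b stayed higher than in Gh and Vamp1 and Vamp2 lower in both fluoxetine groups, and Sv2a stayed higher and Stx1a lower in anxious mice, while Rab3a lost its call in Sh + Flx (-0.16, adjusted p = 0.122). With replicates summed in pairs, Sv2b (0.53, adjusted p = 0.00122) and Stx1a (-0.38, adjusted p = 0.0424) differed between Sh + Flx anxious and Gh, and Sv2a (adjusted p = 0.154), Vamp1 (0.0795) and Vamp2 (0.0591) did not pass. Between Sh + Flx and Gh, Vamp2 passed (adjusted p = 0.0497), while Sv2b (0.0787), Vamp1 (0.112) and Rab3a (0.338) did not.

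**Figure D3:**
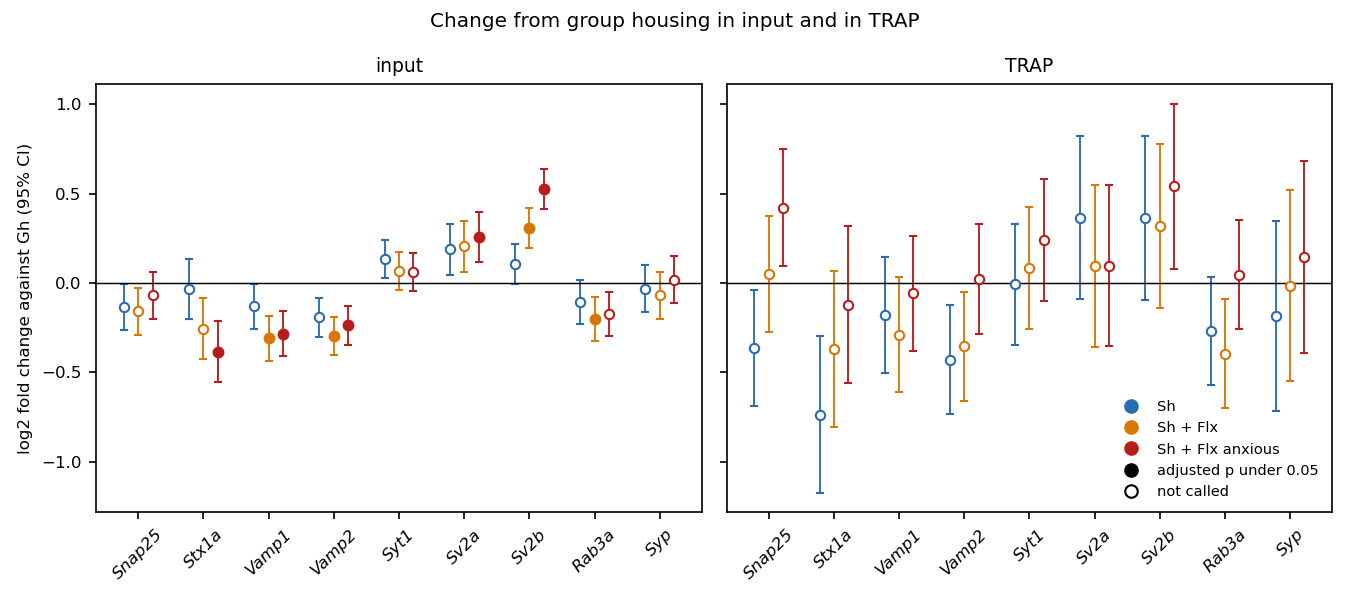
Log2 difference from Gh of each of the 9 genes in input and in TRAP mRNA for Sh, Sh + Flx and Sh + Flx anxious, with 95% intervals from edgeR and filled points where the adjusted p is under 0.05. In input Sv2b goes from 0.11 to 0.31 and 0.53 and Vamp2 lies at -0.19, -0.30 and -0.24; in TRAP mRNA the intervals are wider.

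The promoters of the 3 members with the widest input changes for which a sequence was at hand are shown because their mRNAs moved in opposite directions. Each is 300 bases of RefSeq on GRCm38.p6, from 250 before to 50 after the annotated start, written 5′ to 3′ on the strand of the gene. Capitals mark matches on either strand to the GC box GGGCGG, the CRE half-site TGACG, the NRF1 half-site TGCGCA and the TATA box TATAAA. For Sv2b, which rose, the first of 4 annotated starts is given (chr7:75309213-75309512, minus strand). For Stx1a (chr5:135023232-135023531, plus strand) and Vamp1 (chr6:125215331-125215630, plus strand), which fell, the table holds 1 start each.
Sv2b promoter: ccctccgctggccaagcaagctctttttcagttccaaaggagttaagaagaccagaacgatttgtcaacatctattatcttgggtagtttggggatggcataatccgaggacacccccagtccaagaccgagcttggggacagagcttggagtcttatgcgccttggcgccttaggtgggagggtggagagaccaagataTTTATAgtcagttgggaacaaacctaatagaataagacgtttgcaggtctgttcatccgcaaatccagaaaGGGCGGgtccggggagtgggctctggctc
Stx1a promoter: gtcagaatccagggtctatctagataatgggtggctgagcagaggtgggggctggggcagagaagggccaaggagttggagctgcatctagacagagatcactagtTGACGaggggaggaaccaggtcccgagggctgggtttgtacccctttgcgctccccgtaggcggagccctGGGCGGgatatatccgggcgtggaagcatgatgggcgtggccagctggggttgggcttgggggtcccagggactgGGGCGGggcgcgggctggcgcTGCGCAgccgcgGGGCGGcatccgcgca
Vamp1 promoter: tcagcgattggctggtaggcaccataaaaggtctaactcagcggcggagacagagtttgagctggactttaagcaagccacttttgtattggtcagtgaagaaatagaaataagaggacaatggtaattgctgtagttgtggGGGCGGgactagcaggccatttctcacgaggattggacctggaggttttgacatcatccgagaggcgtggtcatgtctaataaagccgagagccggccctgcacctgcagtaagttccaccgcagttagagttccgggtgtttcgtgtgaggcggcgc
The Sv2b sequence is 51.3% G and C and holds a GC box 21 bases after the start and the TATA letters on the other strand at position -50. The Stx1a sequence is 66.3% G and C and holds 3 GC boxes, an NRF1 half-site and a CRE half-site, and that of Vamp1 is 51.7% G and C and holds 1 GC box. The median of all 32851 promoters is 52.7%. The 7 members with a sequence in the table have 12 promoters among them, and 7 of the 12, 1 for each member, hold a GC box, while 35.7% of all promoters do. A TATA box (13.6% of all promoters) was found for Sv2b alone, CRE half-sites (20.8%) for Stx1a and Rab3a, NRF1 half-sites (7.76%) for Stx1a and Syp, and the E-box CACGTG (7.15%) at the third start of Sv2b. The full CRE, TGACGTCA, which includes the half-site and is in 1.79% of all promoters, was in none of the 12. These are matches of letters and not sites of binding.

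Partners of the members moved in input too. Of the 26, 6 were higher and 1 lower in Sh + Flx than in Gh, and 5 higher and 2 lower in Sh + Flx anxious, or 26.9% called in both beside 5.31% and 11.5% of all genes. Syn2, one of the synapsins that hold vesicles in the reserve pool, had the largest difference, from 295 ± 13.3 CPM in Gh to 463 ± 12.1 in Sh + Flx (log2 difference 0.65, adjusted p = 1.26e-09) and 504 ± 22.4 in Sh + Flx anxious (0.77, adjusted p = 2.6e-11). Slc17a7, which loads vesicles with glutamate in most cortical projection neurons, rose from 231 ± 25.3 to 297 ± 9.75 and 344 ± 26.0 CPM. Sv2c, the third SV2 gene, rose by 0.44 and 0.46 on the log2 scale, and Napb, a cofactor of SNARE disassembly, by 0.17 and 0.25. Rph3a, an effector that binds the Rab3 proteins, fell by 0.37 and 0.48.

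By role, 30 of the 153 vesicle-cycle genes tested in input were higher and 9 lower in Sh + Flx anxious than in Gh, or 25.5% called beside 11.5% of all genes, and 21 were higher and 6 lower in Sh + Flx, or 17.6% beside 5.31%. Among other vesicle membrane and vesicle-bound proteins 8 of 27 were higher and 2 lower in anxious mice. Among transmitter transporters and proton pump subunits 6 of 23 were higher and none lower, and among genes of vesicle endocytosis 6 of 31 were higher and 1 lower. The other SNARE proteins were largely not called, with 1 of 29 higher and 1 lower. Compared with Sh the vesicle-cycle counts were 27 higher and 11 lower in Sh + Flx anxious (24.8% beside 6.86% of all genes) and 16 higher and 2 lower in Sh + Flx (11.8% beside 2.62%). Each list held genes with and without a call, and none is set apart here by a test of its own.

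In TRAP mRNA of S100a10 cells, no member passed the test in 5 of the 6 comparisons. The exception was Sh + Flx anxious compared with Sh, in which Snap25 and Vamp2 rose and none fell, where 10.5% of 16754 genes were called. Stx1a just missed the threshold. The share of all genes called by edgeR was 0% for Sh compared with Gh, 0.00597% for Sh + Flx and 0.0716% for Sh + Flx anxious compared with Gh, 6.46% for Sh + Flx compared with Sh, and 0% between the fluoxetine groups. In those 5 comparisons 3, 2, 2, 1 and 3 members had an unadjusted p under 0.05, and DESeq2 called none. Over all genes the counts at that unadjusted p were, in the same order, 2634, 1029, 1282, 4472 and 724, or 15.7%, 6.14%, 7.65%, 26.7% and 4.32%.

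The 4 Sh TRAP libraries held Snap25 at 12937, 10493, 13505 and 13070 CPM, and those of Sh + Flx anxious TRAP at 21132, 18413, 19532 and 27020. All anxious libraries were above all Sh libraries, and also above the 3 Gh samples (13854 to 17967). The log2 difference from Sh was 0.78 (standard error 0.14, 95% interval 0.48 to 1.08, adjusted p = 0.0062), which is 1.72-fold. It was 0.73 (adjusted p = 0.00687) with Sh TRAP 2 and 3 left out. The call was lost when only these 2 groups entered the fit (0.79, adjusted p = 0.0668) and when replicates 1 and 4 and replicates 2 and 3 were summed (0.79, adjusted p = 0.328). Sh + Flx TRAP stood at 16198, 15176, 15562 and 19937, above all Sh libraries, but the difference of 0.41 did not pass (adjusted p = 0.0805), nor did it without Sh TRAP 2 and 3 (0.37, adjusted p = 0.154). From Gh, Snap25 differed by -0.36 in Sh (95% interval -0.69 to -0.04, adjusted p = 0.278; -0.32 and 0.319 without those libraries) and by 0.42 in Sh + Flx anxious (0.09 to 0.75, adjusted p = 0.498).

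For Vamp2 the Sh TRAP libraries gave 971, 860.1, 1062 and 919 CPM and the Sh + Flx anxious TRAP libraries 1262, 1079, 1284 and 1595, without overlap. Its log2 difference was 0.45 (standard error 0.14, adjusted p = 0.0409), and 0.47 without Sh TRAP 2 and 3 (adjusted p = 0.0446). The call rested on single libraries: it was lost without Sh TRAP 2 or 4 or any 1 of the 4 Sh + Flx anxious TRAP libraries (0.35 to 0.53, adjusted p 0.0506 to 0.122). The Gh samples, at 1357, 1186 and 1301 CPM, lay within the anxious range and above all Sh libraries, but the difference of Sh from Gh did not pass (-0.43, 95% interval -0.73 to -0.12, adjusted p = 0.216), nor did it without Sh TRAP 2 and 3 (-0.46, adjusted p = 0.182).

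In Sh TRAP Stx1a gave 32.6, 44.1, 21.2 and 31.6 CPM, against 47.3, 34.4, 43.05 and 42.5 in Sh + Flx, 52.9, 48.7, 41.1 and 55.0 in Sh + Flx anxious, and 43.3, 53.0 and 64.5 in Gh. The Sh libraries overlapped the other groups only through Sh TRAP 2, at 44.1, one of the pair that stands apart. The difference between Sh + Flx anxious and Sh was 0.62 (95% interval 0.21 to 1.02, adjusted p = 0.0505). Without Sh TRAP 2 it was 0.80 (adjusted p = 0.0266) and without both 2 and 3 it was 0.63 (adjusted p = 0.0405). The difference of Sh from Gh, -0.74 (95% interval -1.17 to -0.30), did not pass (adjusted p = 0.206), and neither did that of -0.77 without both (adjusted p = 0.109). The paper's own edgeR analysis of TRAP samples did list genes altered between Sh and Gh, Stx1a among them and lower in Sh, whereas 0% of genes were called here. The paper used edgeR 3.8.6 and describes 4 biological replicates for each condition. The fit here used edgeR 4.0.16 with n = 3 for Gh TRAP, and the part of these differences was not tested.

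Sv2b, the member with the largest input change, was called in TRAP mRNA only without the libraries that stand apart. Its Sh TRAP values were 469, 685, 977 and 479.9 CPM, where the middle 2 are those libraries, against 699, 689.7, 709 and 859.5 in Sh + Flx anxious. With all libraries the difference was 0.17 (95% interval -0.25 to 0.60, adjusted p = 0.6), and without them 0.65 (adjusted p = 0.0134). Compared with Gh TRAP (517, 523 and 483) all anxious libraries were higher, but the difference of 0.54 did not pass (95% interval 0.08 to 1.002, adjusted p = 0.564). With Sh TRAP 1 and 4 alone standing for Sh, 4 members differed between Sh + Flx anxious and Sh, all higher, where 4.53% of all genes were called. Those 2 libraries are very alike (chi-square of 2.17 per gene on average), and their spread may understate that between pools of mice.

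Vamp1, Syt1, Sv2a, Rab3a and Syp did not pass in any TRAP comparison. Their differences between Sh + Flx anxious and Sh ranged from -0.27 for Sv2a (95% interval -0.69 to 0.15) to 0.33 for Syp (-0.16 to 0.83). Leaving out Sh TRAP 2 and 3 moved Sv2a to 0.08, with a change of sign, and Syp to 0.15. Rab3a was higher in all 4 anxious TRAP libraries (99.4 to 124 CPM) than in all Sh + Flx libraries (73.0 to 93.6 CPM), but the difference of 0.44 (95% interval 0.16 to 0.73) did not pass. Syp spanned 187 to 458 CPM within Sh TRAP, the lowest being Sh TRAP 3.

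**Figure D4:**
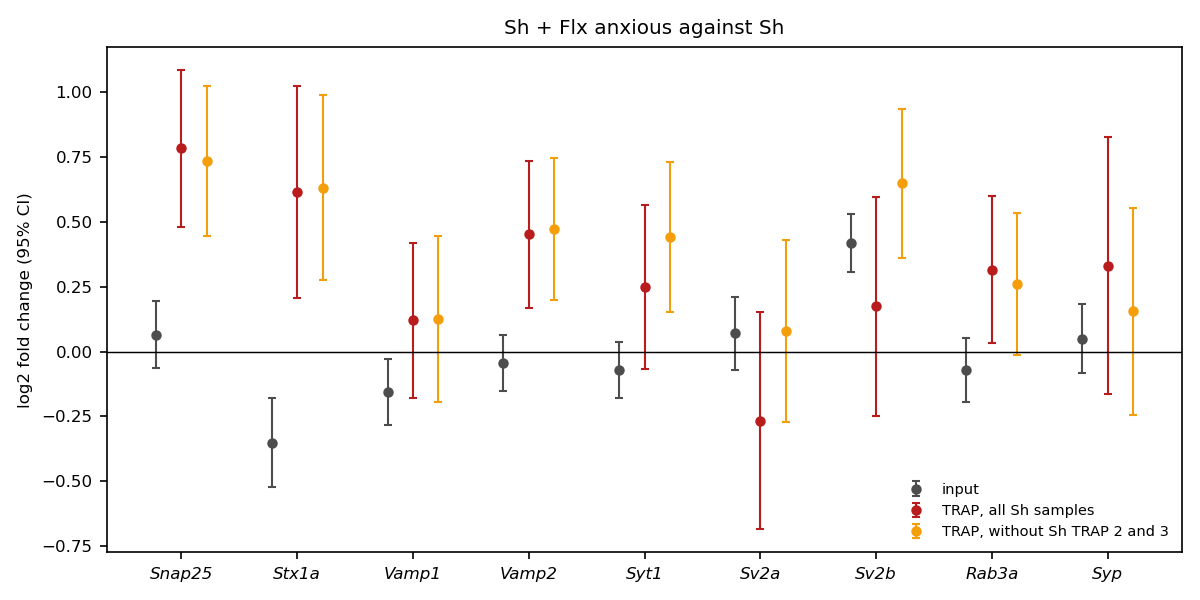
Log2 difference between Sh + Flx anxious and Sh for the 9 genes in TRAP mRNA with all libraries, in TRAP mRNA without Sh TRAP 2 and 3, and in input, with 95% intervals from edgeR. Snap25 lies at 0.78, 0.73 and 0.07, and Stx1a at 0.62, 0.63 and -0.35.

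RNA that is not cytoplasmic moved with this comparison. Of 10 nuclear noncoding RNAs, 8 were lower in Sh + Flx anxious than in Sh TRAP, none was higher, and the median log2 difference was -1.93. Their summed level was 8898 to 55782 CPM in Sh TRAP and 4266 to 7609 in Sh + Flx anxious, and without Sh TRAP 2 and 3 the count was 3 lower and the median -0.67. Of the 24 pan-neuronal markers 7 were higher and 2 lower, or 6 and 0 without those libraries (median 0.25, against 0.32 for the 9 members and -0.01 for all genes), and the summed level was 8383 to 13159 CPM in Sh and 9017 to 9587 in Sh + Flx anxious. Meningeal fibroblast markers summed to 2949 to 11910 CPM in Sh and 5436 to 9331 in Sh + Flx anxious, and 3 of 12 were higher. Those of oligodendrocytes summed to 1147 to 1652 CPM in Sh and 639 to 1018 in Sh + Flx anxious (3 of 12 lower), those of endothelial and mural cells to 164 to 193 and 95.2 to 155 (1 of 14 lower), and those of astrocytes to 3518 to 4614 and 2325 to 3608 (1 of 12 higher, 1 lower). The part of these RNAs in the members' differences was not tested. The rise of Snap25 was called both with and without Sh TRAP 2 and 3, but not with replicates summed in pairs or with only these groups in the fit. Leaving out libraries does not test the part of these RNAs.

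The change of the members in TRAP mRNA was also set against their change in whole cortex. For Sh + Flx anxious compared with Sh, the TRAP change exceeded the input change in 3 members and fell short in none, where 7.26% of 17015 genes were called for such a difference. For Snap25 the log2 difference of the changes was 0.71 (standard error 0.16, adjusted p = 0.00984). For Stx1a, higher in TRAP mRNA and lower in input, it was 0.96 (standard error 0.21, adjusted p = 0.00918). For Vamp2 it was 0.49 (standard error 0.14, adjusted p = 0.0299), a call lost without Sh + Flx anxious TRAP 4, Sh input 3, Sh input 4 or Sh + Flx anxious input 3 (0.0524 to 0.0758). Leaving out Sh TRAP 2 and 3, where 2.97% of genes were called, the 3 passed (0.70, 1.01 and 0.55), and Syt1 passed as well (0.55, adjusted p = 0.0264). With replicates 1 and 4 and replicates 2 and 3 summed none passed (adjusted p = 0.406 for each of the 3). Sv2b did not differ in this way at the threshold (-0.24, 95% interval -0.66 to 0.18), nor without Sh TRAP 2 and 3, where the sign differed (0.26, adjusted p = 0.283).

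For Sh + Flx compared with Sh (2.97% of all genes called) and for Sh compared with Gh (0.0235%), edgeR and DESeq2 called no member. At an unadjusted p under 0.05 there were 2 and 1 members, Stx1a in both, and 3756 and 2190 of all genes (22.1% and 12.9%). The Stx1a difference was 0.59 (95% interval 0.16 to 1.02, adjusted p = 0.104) for Sh + Flx, and without Sh TRAP 2 it passed (0.80, adjusted p = 0.0402), but not without both 2 and 3 (0.63, adjusted p = 0.0664). For Sh compared with Gh it was -0.70 (95% interval -1.15 to -0.25, adjusted p = 0.231), and -0.74 without both (adjusted p = 0.0582).

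Of the 26 partners, 4 rose and 2 fell in TRAP mRNA of Sh + Flx anxious compared with Sh, or 23.1% beside 10.5% of all genes. Those that rose were Cplx1 (0.66, adjusted p = 0.00837), Napb (0.63, adjusted p = 0.0181), Slc17a7 (0.59, adjusted p = 0.0328) and Syn2 (0.58, adjusted p = 0.0258), and those that fell were the priming factor Unc13a (-1.44, adjusted p = 0.0136) and the synaptotagmin Syt7 (-0.74, adjusted p = 0.0471). The falls were not called once Sh TRAP 2 and 3 were left out, at -0.34 for Unc13a (adjusted p = 0.272) and -0.19 for Syt7 (adjusted p = 0.5677). The 4 rises were, at 0.58 for Cplx1, 0.77 for Napb, 0.65 for Slc17a7 and 0.84 for Syn2, and Dnm1, the dynamin of vesicle endocytosis, and Nsf, the ATPase of SNARE disassembly, passed as well (0.48 and 0.59, adjusted p = 0.0359 and 0.0238). Of 154 vesicle-cycle genes tested 21 were higher and 9 lower, or 19.5% called. Among transporters and proton pump subunits 7 of 24 were higher and 1 lower, among other SNARE proteins 5 of 29 were higher and none lower, and among genes of SNARE assembly, priming and disassembly 5 of 28 were higher and 4 lower. Leaving out Sh TRAP 2 and 3, the count was 22 higher and 1 lower of 155, or 14.8% beside 4.53% of all genes, with 2 of 29 other SNARE proteins higher.

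Ratios between paralogues within a library need no scaling between libraries, and those of the synaptobrevins and of the SV2 proteins are given per kilobase of merged exons. None of the 30 exact two-sided permutation tests run on such ratios passed after adjustment over all 30 (smallest adjusted p = 0.0857). The smallest p that 4 against 4 libraries allow is 0.0286, and that for 3 against 4 is 0.0571. For Vamp1 to Vamp2 the log2 ratio was -4.22 ± 0.07 in Gh input (SD, n = 4) and -4.82 ± 0.21 in Gh TRAP (SD, n = 3). In each of the 4 groups the TRAP ratios lay below the input ratios without overlap, by 0.41 to 0.63. For Sv2a to Sv2b the ratio was -2.03 ± 0.10 in Gh input and -2.52 ± 0.14 in Gh TRAP, and it was lower in TRAP mRNA by 0.49 to 0.65 over the groups. The ranges of the fractions overlapped in Sh (-3.17 to -2.03 in TRAP and -2.19 to -1.83 in input) and not in the other groups. In input the Sv2a to Sv2b ratio was lowest in Sh + Flx anxious, at -2.31 ± 0.15, at a range that overlapped that of Sh. In Sh the differences between the fractions (-0.41 for the synaptobrevins and -0.54 for SV2) were -0.39 and -0.43 with Sh TRAP 2 and 3 left out.

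**Figure D5:**
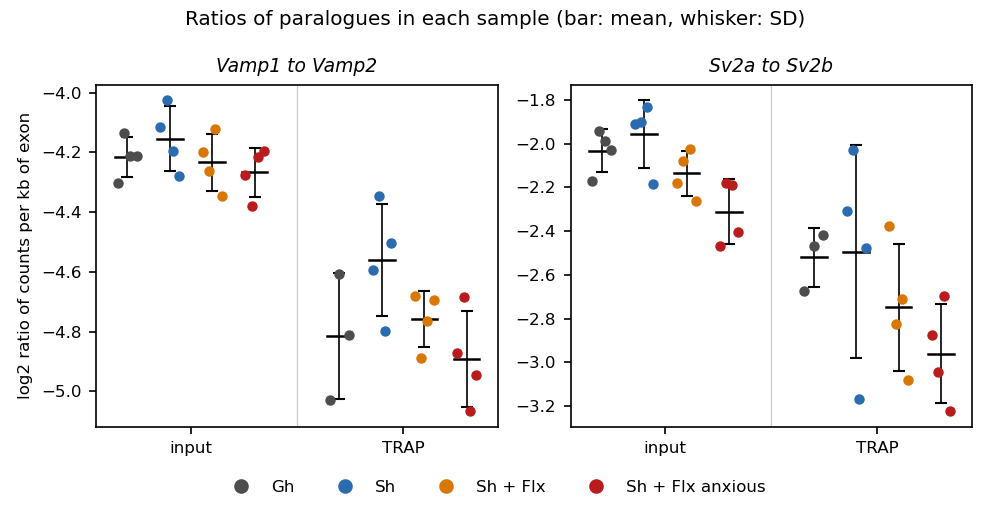
Log2 ratio of Vamp1 to Vamp2 and of Sv2a to Sv2b per kilobase of merged exons in every sample, by fraction and group, with group means (bars) and 1 SD (whiskers). For Vamp1 to Vamp2 the means lie between -4.27 and -4.15 in input and between -4.89 and -4.56 in TRAP mRNA.

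Over all TRAP samples and over the input libraries, the 9 genes did not vary as a block. Over the 36 pairs, Pearson's r of log2 CPM had a median of 0.35 over the 15 TRAP samples (from -0.36 for Snap25 and Sv2a to 0.81 for Snap25 and Vamp2) and of -0.01 over the 16 input libraries (from -0.88 for Stx1a and Sv2b to 0.85 for Vamp1 and Rab3a). Over the 13 TRAP samples other than Sh TRAP 2 and 3 all 36 were positive, from 0.14 to 0.88, with a median of 0.48. The libraries share groups, depth and composition, so that these values are descriptions. Among 9110 genes with a mean of at least 10 CPM in TRAP mRNA, those most like Snap25 over the 15 samples were Atp6v1g2, a subunit of the vacuolar proton pump (r = 0.98), and the calcium-binding Vsnl1 (0.98). Those most like Sv2b were Aff2 (0.95), Snap91, an endocytic adaptor of nerve terminals (0.95), and the RNA-binding Celf2 (0.94). Those most like Syt1 were the cadherin Cdh2 (0.93), the adhesion molecule Cadm3 (0.92) and the diacylglycerol kinase Dgkg (0.92). Over the 13 samples the first gene was the same for Snap25, Vamp1 (Slc36a4) and Syt1 and another for the other 6 members.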

How the data were processed

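TRAP and input RNA was amplified with the unstranded Ovation RNA-Seq V2 kit and sequenced as 75-bp paired ends. Per the labels, the authors aligned reads to mm10 with TopHat2 2.0.11 and deposited 1 table of raw counts per gene and library. Which program counted the reads, and with which strand option, was not given in the sources used here. Their tables of mean FPKM, fold changes and p-values were not used in the tests here. The 5 lines that name no gene stayed out of library sizes, with 25.2% to 58.6% of read pairs in no feature and 0.331% to 0.724% ambiguous. Without strand, reads of a gene and of an antisense partner cannot be told apart.

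Counts were scaled by TMM and tested with edgeR 4.0.16 (R 4.3.3): quasi-likelihood fits over all groups for TRAP (15 samples, 16754 genes), input (16 samples, 15690 genes) and both together (31 samples, 17015 genes), after filterByExpr, with p adjusted over all genes kept (Benjamini-Hochberg, 0.05). CPM and fold changes used a prior count of 2 where logged. Ratios of paralogues were compared by exact two-sided permutation tests over libraries. Lengths, positions and promoters came from RefSeq on GRCm38.p6; 22516 of 24062 genes had a length, and no promoter was at hand for Snap25 and Vamp2. Groups came from the labels. The alternatives were DESeq2 1.42.0, other scalings (size factors, library size, pan-neuronal markers), no count filter, the replicate block, Gh TRAP 2 and 3 kept apart, summed replicates, libraries left out and only the groups compared. The edgeR tests were also run on simulated counts of independent libraries. Those held no pairs of near-identical replicates and no libraries set apart like Sh TRAP 2 and 3, so that check does not cover such features.

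The genes named were the 9 members, 26 relatives and partners, S100a10 and Malat1 as checks of the libraries, and the 3 genes most like a member by Pearson's r over TRAP samples (predicted genes left out); a few of these are not reported here. 1500012K07Rik was named after its values were seen, since its exons overlap those of Sv2b. The members and lists were chosen with earlier results of these data known, so that no count over a list is independent support.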

Additional observations from a re-analysis of the deposited data

Results flagged for a closer look

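Within groups of 4 libraries, 63 combinations of a member and a group were examined for a library far from the other 3, and 4 stood out; chance alone would give about 1 in 20. Vamp2 was lowest in Sh + Flx input 1, at 1479 CPM against 1557 to 1560 in the other 3. Sv2a was lowest in Sh input 4, at 94.0 CPM, Sv2b highest in Sh + Flx anxious TRAP 4, at 859.5 CPM, and Rab3a highest in Sh + Flx anxious input 4, at 156.0 CPM.

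For Sh + Flx anxious compared with Sh, the change in TRAP mRNA exceeded that in input by a log2 difference of 0.71 for Snap25, 0.96 for Stx1a and 0.49 for Vamp2, each past the threshold of edgeR's test of the difference itself. For Stx1a the changes had opposite signs, 0.62 in TRAP mRNA and -0.35 in input. The nuclear RNA content of Sh TRAP 2 and 3 moved with this comparison, and without those libraries the values were 0.70, 1.01 and 0.55. The part of cell composition in the difference was not tested.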

How the results depend on the processing

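Over 41 alternatives, 3024 values of single members were recomputed: 2877 kept their direction and side of the threshold, or were uncalled in both (of those 2220, 110 changed sign), 98 lost a call, 31 gained one and 18 reversed. All 18 reversals came from scaling to the pan-neuronal markers in TRAP compared with input. In Gh they were Rab3a 0.044, Snap25 0.20, Stx1a 0.65, Sv2b 0.29, Syp 0.10 and Vamp2 0.10, in Sh it was Sv2b 0.26, in Sh + Flx they were Snap25 0.51, Stx1a 0.64, Sv2b 0.39, Syp 0.24, Syt1 0.061 and Vamp2 0.15, and in Sh + Flx anxious Rab3a 0.22, Sv2b 0.26, Syp 0.19, Syt1 0.090 and Vamp2 0.31 (log2). That scaling called 3 members in Gh, 4 in Sh and 4 in Sh + Flx, 1 in TRAP mRNA between Sh + Flx anxious and Sh and 0 in input between Sh + Flx and Sh; the cause was not tested.

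DESeq2 called 1 member in input between Sh and Gh and 1 between the fluoxetine groups. Its size factors in edgeR left 1 (Snap25) in TRAP mRNA between Sh + Flx anxious and Sh. Library size alone called 1 (Snap25) in TRAP mRNA between Sh + Flx and Sh and 4 in TRAP compared with input of Sh + Flx anxious, 1 higher and 3 lower. With only the groups compared in the fit, 1 member was called in TRAP mRNA between Sh + Flx anxious and Gh and 0 between Sh + Flx anxious and Sh. With replicates summed to 2 a group, the counts were 0 for TRAP mRNA and 1 for input between Sh + Flx anxious and Sh, 1 and 2 for input of Sh + Flx and Sh + Flx anxious compared with Gh, 0 for input of Sh + Flx compared with Sh, 3 for TRAP compared with input in Sh + Flx anxious and 0 for the difference of changes; fewer samples enter these fits. Without Sh TRAP 2 and 3, 4 were called in TRAP mRNA between Sh + Flx anxious and Sh, beside 4.53% of all genes. Shares for the other settings are not given in this paragraph.

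Leaving out 1 library at a time, the counts ranged from 6 to 7, 8 to 9, 5 to 8 and 4 to 6 for TRAP compared with input (in the order Gh, Sh, Sh + Flx, Sh + Flx anxious), from 1 to 2 for TRAP mRNA and 2 to 2 for input between Sh + Flx anxious and Sh, from 3 to 4 and 4 to 6 for input of Sh + Flx and Sh + Flx anxious compared with Gh, from 0 to 2 for input of Sh + Flx compared with Sh, and from 0 to 1 and 2 to 3 for the difference of changes of Sh + Flx and Sh + Flx anxious.

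Deviations from the group means of same-numbered libraries correlated at -0.020 to 0.106 between TRAP and input (median 0.031), -0.256 to 0.199 between TRAP groups (median -0.056) and -0.147 to 0.125 between input groups (median 0.0019). The 4 same-numbered pairs of Gh and Sh TRAP were all above 0.1 (0.101 to 0.199), but so were numbers 1 with 4 and 2 with 3 (0.127 to 0.186), and the block called 0 members there. Between Sh and Sh + Flx TRAP the same-numbered pairs were all negative (-0.131 to -0.256). Sh TRAP 1 and 4 instead correlated with Sh + Flx TRAP 2 and 3, at 0.220 to 0.247. A block by number cannot take up numbers that are swapped between groups, so its calls do not decide which libraries belong together. The replicate block, which keeps Gh TRAP 2 and 3 apart, called 8 members in TRAP compared with input of Gh (Sv2b added, adjusted p = 0.0353). Keeping them apart without a block also called 8 (0.0383), and 3 in TRAP mRNA between Sh + Flx anxious and Sh. The block called 3 in input of Sh + Flx compared with Gh (Rab3a -0.20, adjusted p = 0.0591), and changed no other member's call. None of the 48 alternative values of paralogue ratios changed direction or passed the threshold, which the smallest possible p limits.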
